A study of Mus musculus with 6 samples.

Results

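Genes of the pancreatic islet were read out in mouse spleen, where insulin 2 (Ins2) was the one islet hormone whose signal moved by more than 2 log2 units over the 6 arrays, and it was lowest in the array in which the digestive enzyme transcripts of pancreatic acinar cells were also lowest. The islet genes were a list of 10: the hormones Ins1, Ins2, Gcg, Sst, Ppy and Iapp, the transcription factors Pdx1 and Nkx6-1, and the secretory granule genes Chga and Pcsk1. A probe set counted for a gene where the platform annotation gave it that symbol and no other. By this rule 13 of the 45037 probe sets tested represented 9 of the 10 genes, out of 18193 genes with such a probe set. No probe set carried the symbol Ins1 alone, so Ins1 was not analysed here.

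The arrays came from spleens of adult F1 females of a pair of crosses, with no treatment named beyond Avertin anaesthesia before cervical dislocation. In one cross the parents were AKR/J and FVB/NJ (3 arrays), and in the other they were DBA/2J and FVB/NJ (3 arrays), so every animal carried 1 FVB/NJ genome and the crosses differed in the other parental strain. Each array is labelled as one spleen, and nothing in the labels gives litter, exact age or dissection details. The study was set up to find basal differences in spleen expression between these genotypes. The F1 animals are called AKR/J hybrids and DBA/2J hybrids below, each with its replicate number. A difference is the log2 mean of AKR/J hybrids less that of DBA/2J hybrids, so those above 0 are higher in AKR/J hybrids.

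Islets are small clusters of endocrine cells scattered through the exocrine pancreas. Beta cells secrete insulin and amylin, alpha cells glucagon, delta cells somatostatin and PP cells pancreatic polypeptide, and the prohormones are cut to active hormones inside dense-core granules. Acinar cells, which make digestive enzymes, form most of the organ, and the tail of the pancreas lies close to the hilum of the spleen.

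The arrays carried the signature of the labelled tissue. Averaged over 11 spleen genes, among them the B cell receptor component Cd79a, the T cell receptor chain Cd3e and the iron exporter Slc40a1, the level was 10.27 to 10.32 in AKR/J hybrids and 10.01 to 10.15 in DBA/2J hybrids. Of the 22 probe sets of these genes 6 passed the limma test described below (27.3%, against 10.4% of all probe sets), all higher in AKR/J hybrids, and 1, Cd8a, passed without DBA/2J hybrid 3. Array medians ran from 5.05 to 5.10 and values from 1.81 to 14.56. One array stood apart: DBA/2J hybrid 3 had a mean of 5.48 over 23 acinar enzyme genes, where the other 5 arrays had 11.65 to 12.75.

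**Figure D1:**
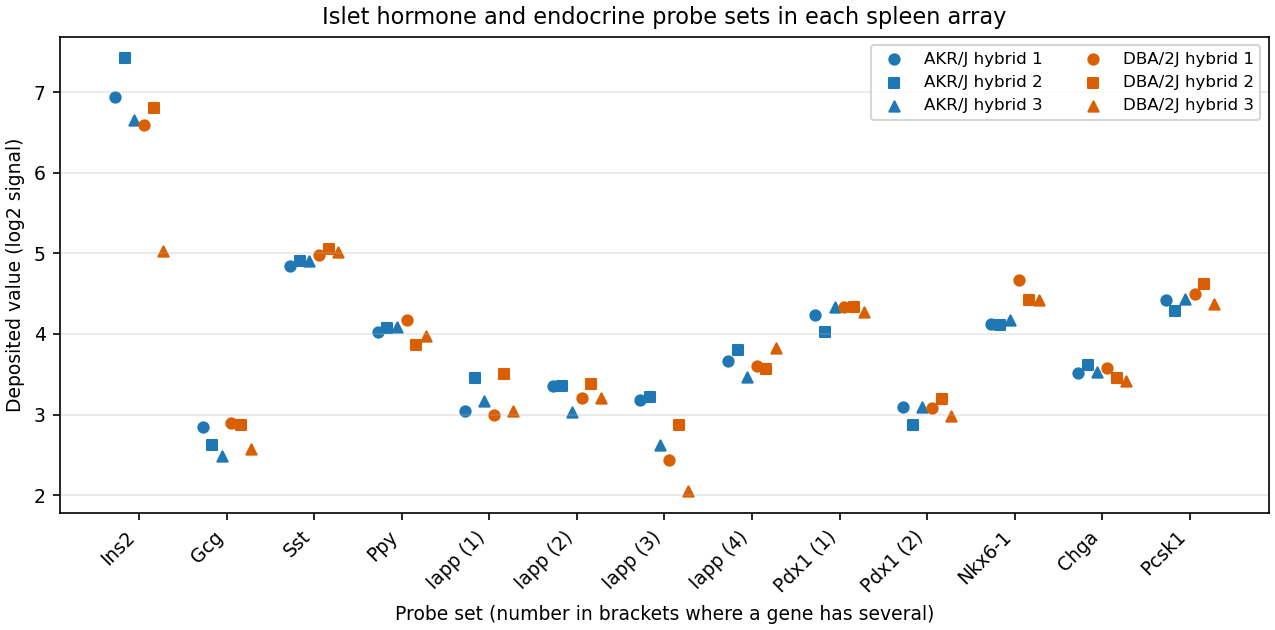
Deposited values (log2 signal, y axis) of the 13 islet probe sets (x axis) in each of the 6 spleen arrays, blue for AKR/J hybrids and orange for DBA/2J hybrids, with a symbol for each replicate. The 4 Iapp and 2 Pdx1 probe sets stand in the order of their numbers. Ins2 lies between 6.59 and 7.42 in 5 arrays and at 5.03 in DBA/2J hybrid 3, while the other 12 probe sets lie between 2.05 and 5.05.

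Insulin 2, one of the pair of mouse insulin genes, had 1 probe set (1422446_x_at). Its values were 6.94, 7.42 and 6.65 in AKR/J hybrids and 6.59, 6.81 and 5.03 in DBA/2J hybrids. All arrays but 1 lay within 0.83 of each other, and DBA/2J hybrid 3 lay 1.55 below the lowest of them. The crosses overlapped, because AKR/J hybrid 3 (6.65) lay below DBA/2J hybrid 2 (6.81). In DBA/2J hybrid 3 the signal was at the 49.4th percentile of all probe sets on that array, and in the other arrays at the 69.1st to 78.2nd percentile. Signals of different probe sets also depend on their probes, so such a position describes signal and not amount of transcript. In Affymetrix naming the ending of this probe set marks probes that may also bind other transcripts, and the share of its signal that comes from the closely related Ins1 was not tested.

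Between the crosses Ins2 averaged 7.00 ± 0.39 and 6.14 ± 0.97 (mean ± SD, n = 3 each). The difference of 0.86 ± 0.42 (SE) did not pass (adjusted p = 0.207, limma with Benjamini-Hochberg adjustment over all probe sets). As a fold this is 1.82, with a 95% interval of 0.927 to 3.56, so the arrays allow no difference as well as one above 3-fold. Without DBA/2J hybrid 3 the difference was 0.31 ± 0.21 (limma adjusted p = 0.389), with an interval of -0.18 to 0.79. The size of the Ins2 difference thus rested largely on that array, and its sign was positive in each alternative tried (0.31 to 1.19).

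Few probe sets were set apart in that array as far as Ins2 was. Only 67 of 45037 probe sets (0.149%) lay at least as far below the lowest of the other 5 arrays as Ins2 did. Of these, 36 belonged to the acinar lists, 1 was Ins2 itself and 10 had no single gene symbol. Some of those 10 carried several symbols, such as Cela3a with Cela3b. The lists of other islet genes, of pancreatic duct and of spleen held 0. The rest had a single symbol outside these lists, among them Reg1 (7.97 below the lowest other array), Cckar (3.09) and Ttr (2.15 and 1.6). These unlisted genes were not sorted by cell type, so the 0 covers only the islet genes listed here. The 0 also depends on the cutoff, which was the distance of Ins2 itself. A distance of at least 1 was reached by 80 probe sets (0.178%). At that cutoff the other islet list held 1, Ptprn2 at 1435968_at (1.14), the duct list 1, Muc1 (1.22), and the spleen list 0. Over all 6 arrays the Ins2 values spanned 2.38, a range that 189 probe sets (0.42%) reached, where the median range was 0.41.

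The other hormones were not set apart in that array at most of their probe sets. Glucagon (Gcg), the alpha cell hormone that raises blood glucose, stood at 2.85, 2.62 and 2.48 in AKR/J hybrids and 2.89, 2.87 and 2.57 in DBA/2J hybrids. All 6 of these values were close to the bottom of the signal range, between the 5.3rd and the 14.1st percentile of their arrays. The crosses overlapped, and the difference of -0.13 ± 0.13 did not pass (limma adjusted p = 0.527). Somatostatin (Sst), which restrains the release of insulin and glucagon, stood at 4.84, 4.90 and 4.90 against 4.98, 5.05 and 5.02. Every DBA/2J value of Sst lay above every AKR/J value, and the difference of -0.14 ± 0.07 did not pass (limma adjusted p = 0.257). Pancreatic polypeptide (Ppy) stood at 4.03, 4.08 and 4.09 against 4.17, 3.86 and 3.98, with the AKR/J values inside the DBA/2J range and a difference of 0.06 ± 0.10 that did not pass (limma adjusted p = 0.700). For Gcg, Sst and Ppy, DBA/2J hybrid 3 was not the lowest of the 6 arrays.

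Amylin (Iapp), the peptide that beta cells release together with insulin, had 4 probe sets that did not behave alike. At 1437323_a_at it stood at 3.18, 3.22 and 2.62 in AKR/J hybrids and 2.43, 2.87 and 2.05 in DBA/2J hybrids. These 6 values fall in the same order of arrays as those of Ins2, from AKR/J hybrid 2 down to DBA/2J hybrid 3. That order was found at 54 of all 45037 probe sets (0.12%, Ins2 included), of which this was the 1 other islet probe set, and at 0 of the 40 acinar enzyme probe sets. Because 6 arrays can fall in many orders, any single order is held by few probe sets, so this share does not mark the order as rare. At that share a count of 0 in 40 could hardly come out otherwise. The signal was very low, at the 0.1st percentile in DBA/2J hybrid 3 and at most the 21.9th elsewhere. The difference between the crosses was 0.55 ± 0.22 and did not pass (limma adjusted p = 0.138, and 0.321 without DBA/2J hybrid 3). With the replicate number as a block it did pass (limma adjusted p = 0.0269).

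At the remaining 3 probe sets Iapp showed no such order. At 1423509_a_at it stood at 3.04, 3.45 and 3.17 against 2.99, 3.50 and 3.05, and at 1423510_at at 3.36, 3.35 and 3.03 against 3.21, 3.38 and 3.21. At 1456004_x_at it stood at 3.67, 3.80 and 3.46 against 3.60, 3.57 and 3.82, so that DBA/2J hybrid 3 was there the highest of the 6. The crosses overlapped at all 3, with differences of 0.04, -0.02 and -0.03 that did not pass (limma adjusted p = 0.868, 0.939 and 0.897).

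Of the transcription factors, Pdx1 is needed for pancreas formation and drives insulin transcription in beta cells. At 1422173_at it stood at 4.23, 4.03 and 4.34 against 4.33, 4.33 and 4.27, and at 1422174_at at 3.09, 2.87 and 3.09 against 3.08, 3.19 and 2.98. The crosses overlapped at both, and the differences of -0.11 ± 0.10 and -0.07 ± 0.10 did not pass (limma adjusted p = 0.463 and 0.673). In DBA/2J hybrid 3, where Ins2 was lowest, both Pdx1 values lay inside the range of the other 5 arrays.

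Nkx6-1, a homeodomain factor of beta cells, was the only one of the 13 probe sets past the threshold. It stood at 4.12, 4.11 and 4.17 in AKR/J hybrids and 4.67, 4.42 and 4.42 in DBA/2J hybrids, so the crosses did not overlap. The difference was -0.37 ± 0.09 (limma adjusted p = 0.0448), higher in DBA/2J hybrids in 3 of 3 arrays, a 0.774-fold ratio of AKR/J to DBA/2J. Over the alternatives the difference was -0.41 to -0.28. The call was lost when each array was centred on its median (-0.34, adjusted p = 0.0524), after quantile normalization (-0.29, adjusted p = 0.100), with a trended and robust variance (0.0522), with the replicate block (0.0560) and without any 1 array (0.0674 to 0.118). It held with array weights (0.0372) and with 1 probe set a gene (0.0331), also in limma. Small shifts of this sign were common among dim probe sets. In the lowest 40% of probe sets by mean level the median difference was -0.09, and 758 of the 952 called there were higher in DBA/2J hybrids. After quantile normalization that median was -0.01, and the Nkx6-1 difference was -0.29.

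Of the granule genes, chromogranin A (Chga), a matrix protein of dense-core granules in endocrine cells and neurons, stood at 3.51, 3.61 and 3.53 against 3.58, 3.45 and 3.42. DBA/2J hybrid 3 was lowest, by 0.03, and the difference of 0.07 ± 0.08 did not pass (limma adjusted p = 0.585). Pcsk1, the convertase that makes the first cuts in proinsulin, stood at 4.42, 4.29 and 4.43 against 4.49, 4.62 and 4.37. The crosses overlapped, with a difference of -0.12 ± 0.09 that did not pass (limma adjusted p = 0.423).

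In all, 1 of 13 islet probe sets passed (0 higher in AKR/J hybrids and 1 in DBA/2J hybrids), or 7.69%, against 10.4% of all probe sets, a share that does not set the islet genes above the array as a whole. Crosses did not overlap at 2 of the 13, Sst and Nkx6-1, against 36.1% of all probe sets. The median difference was -0.03 for the islet probe sets and -0.02 for all. When DBA/2J hybrid 3 was left out, 0 of 13 passed in limma (1 at an unadjusted p under 0.05), against 2.78% of all probe sets, and 0 also passed without any other single array (1 to 3 unadjusted). Outside Ins2, the 95% intervals of the 12 probe sets reached at most from 0.667-fold to 2.09-fold, which bounds the signal differences at these dim probe sets and not those of the transcripts. A filter that leaves out the lowest 40% of probe sets by mean level kept 3 of the 13. In whole tissue, fewer cells of a type and less RNA per cell cannot be told apart.

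**Figure D2:**
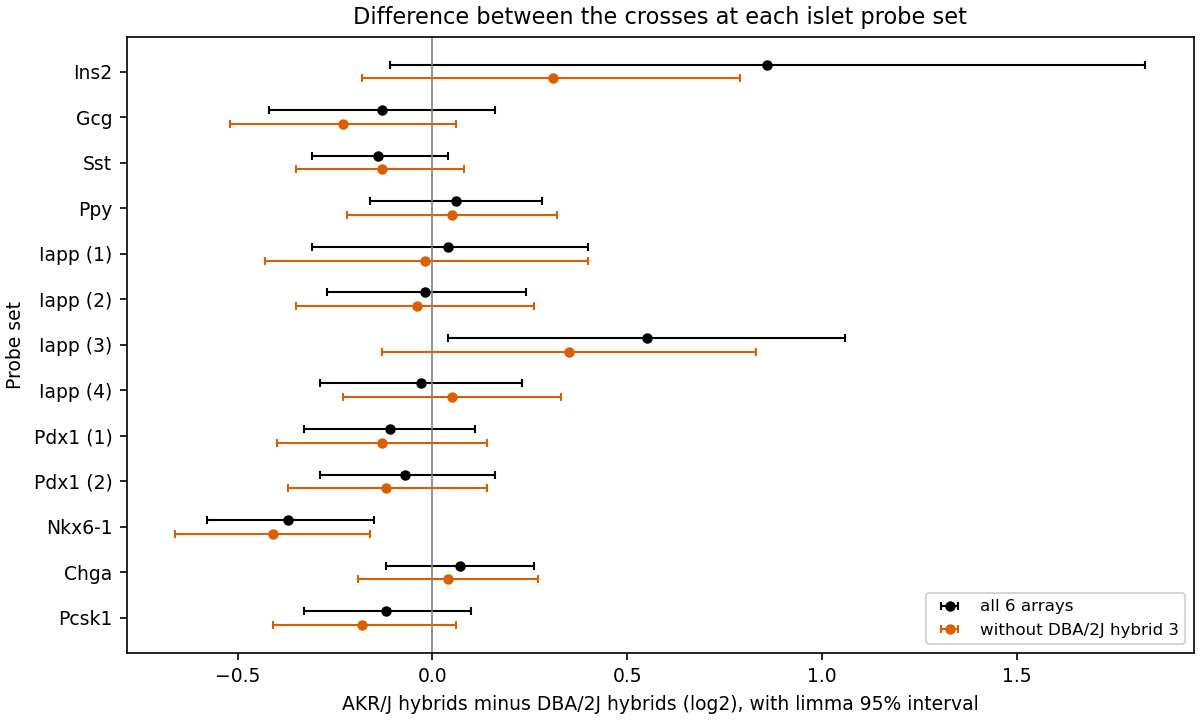
Difference between the crosses (AKR/J minus DBA/2J, log2, x axis) at each islet probe set (y axis) with limma's 95% interval, in black for all 6 arrays and in orange without DBA/2J hybrid 3. The Ins2 difference goes from 0.86 to 0.31 when that array is left out, and Nkx6-1 is the one probe set past the threshold with all 6 arrays.

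To see whether islet transcripts accompany the acinar ones, both were set side by side by array. The acinar enzymes were high in 5 arrays and far lower in DBA/2J hybrid 3. The elastase gene Cela2a stood at 14.00, 13.99 and 14.05 in AKR/J hybrids and 13.64, 13.88 and 6.16 in DBA/2J hybrids, and the chymotrypsinogen gene Ctrb1 at 14.01, 14.05 and 14.06 against 13.64, 13.99 and 6.76. DBA/2J hybrid 3 was the lowest array for all 23 enzyme genes, taken at the brightest probe set of each. It lay below the mean of the other arrays by 1.74 to 8.48, with a median of 7.47, a 178-fold ratio. For Ins2 the same quantity was 1.85, a 3.60-fold ratio, and 22 of the 23 enzyme genes exceeded it. Ins2 stood at 6.59 to 7.42 in the other arrays, and the lowest value on any array was 1.81. A shortfall of 7.47 was thus out of its reach, and the comparison does not show how closely Ins2 follows the enzymes. The dimmer enzyme gene Prss3, at 4.79 to 6.38 in those arrays, lay 1.74 lower in DBA/2J hybrid 3. Because 5 arrays lie together and 1 lies far off, no correlation between islet and acinar levels was computed.

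Ins2 and the acinar enzymes had the same lowest array and a different order among the rest. For all 23 enzyme genes the 3 AKR/J arrays lay above the 3 DBA/2J arrays, which held at 7980 of the 45037 probe sets. For all 23 DBA/2J hybrid 1 lay below DBA/2J hybrid 2, and for 21 of the 23 the highest array was AKR/J hybrid 3. The shares of all probe sets with these latter orders were not counted. The enzyme genes were all read in the same 6 spleens, so these counts are not replicates of an order. The lead of AKR/J hybrid 3 over AKR/J hybrid 2 was often small, as for Ctrb1 (14.06 against 14.05), and elsewhere wider, as for Serpini2 (9.40 against 9.13). For Ins2 the highest was AKR/J hybrid 2, and AKR/J hybrid 3 lay below DBA/2J hybrid 2.

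**Figure D3:**
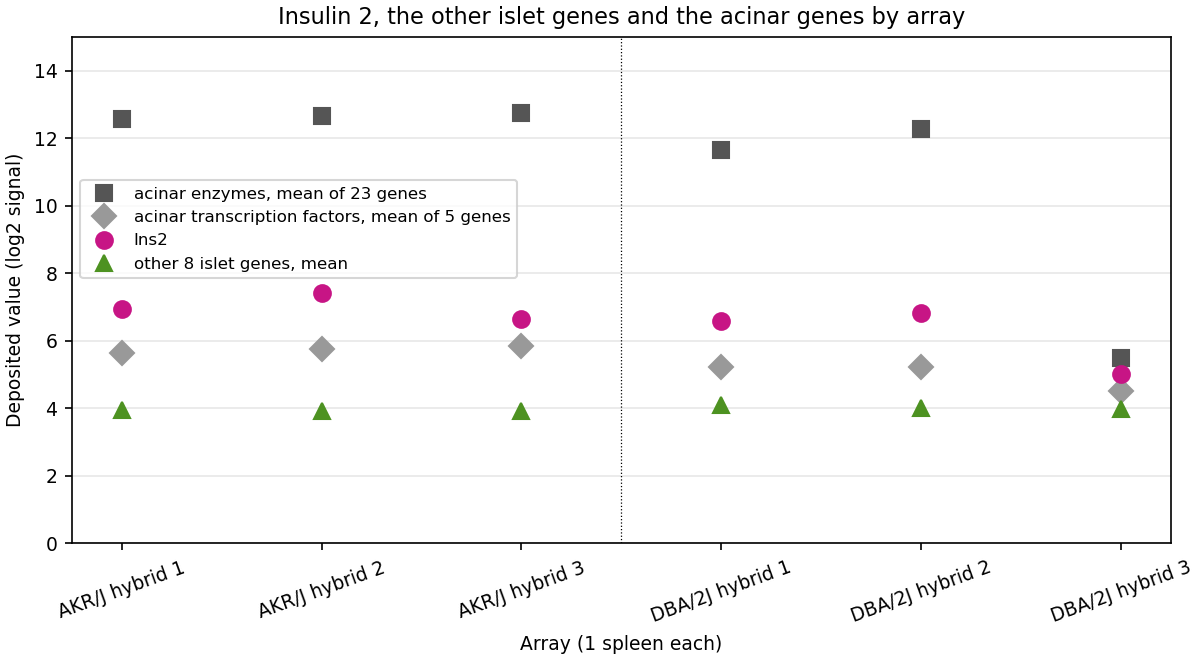
Deposited values (log2 signal, y axis) by array (x axis) for Ins2, for the mean of the other 8 islet genes, and for the means of 23 acinar enzyme and 5 acinar transcription factor genes, each gene at its brightest probe set. In DBA/2J hybrid 3 the enzyme mean is 5.48 and Ins2 5.03, while the mean of the other 8 islet genes stays between 3.92 and 4.09 in all 6 arrays.

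The signal of the other islet genes did not follow that of the enzymes as a group, at levels with little room to fall. Averaged over the 8 islet genes other than Ins2, the level was 3.96, 3.93 and 3.92 in AKR/J hybrids and 4.09, 4.02 and 3.98 in DBA/2J hybrids. The array with the low acinar signal lay in the middle of these 6. Of the 12 probe sets of these genes it was lowest at 2, Iapp 1437323_a_at and Chga, which is 16.7%. It was lowest at 15.1% of all probe sets and at 10.2% of the lowest 40% of probe sets by mean level. Their values there differed from the mean of the other arrays by -0.20 to 0.81, counted as other arrays minus DBA/2J hybrid 3. Most of these 12 probe sets were among the lowest 40% by mean level. Of the 18015 probe sets in that range, 0 lay in DBA/2J hybrid 3 at least 1 below the lowest other array. The values therefore cannot show whether the other islet transcripts accompanied the acinar ones.

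Transcription factors of acinar cells were on average lowest in the same array, at 4.51 against 5.21 to 5.85 elsewhere. Ptf1a, which drives acinar gene expression, stood at 6.36, 6.23 and 6.33 against 4.98, 5.31 and 3.18. At its brighter probe set the secretory cell factor Bhlha15 stood at 7.28, 7.32 and 7.67 against 6.63, 6.60 and 5.34. Both passed as higher in AKR/J hybrids (1.81 and 1.23, limma adjusted p = 0.0455 each), and both did so without DBA/2J hybrid 3 (1.16 and 0.81, adjusted p = 0.00711 and 0.0291). Without AKR/J hybrid 1, 2 or 3, or DBA/2J hybrid 2, neither passed (adjusted p = 0.0523 to 0.121), nor did either with quantile normalization (0.0563 and 0.0702) or a trended and robust variance (0.124 and 0.0898), and Bhlha15 did not with the replicate block (0.0525). Rbpjl, a partner of Ptf1a, passed in opposite directions at its 2 probe sets (0.78 and -0.51, limma adjusted p = 0.0246 and 0.0183). Nr5a2 passed at 1 of 4 probe sets (1.25, limma adjusted p = 0.0354), and Gata4 at neither of its pair (-0.17 each). Rbpjl and Nr5a2 did not pass without DBA/2J hybrid 3. These transcription factors had 11 probe sets, of which 5 passed, where 10.4% of all probe sets did. Of the 40 enzyme probe sets 1 passed, the trypsinogen gene Prss3 (1.48, limma adjusted p = 0.0292, and 0.0532 without DBA/2J hybrid 3). The enzymes Cela1, Cela2a, Ctrb1 and Prss2 had differences of 1.96 to 2.79 with SE of 1.17 to 1.76 and did not pass. Without DBA/2J hybrid 3 their differences were 0.22 to 0.31 and did not pass. In that fit 4 other enzyme probe sets passed, both bright Klk1 probe sets and those of Spink1 and Serpini2 (1.11 to 1.41, limma adjusted p = 0.0421 to 0.0458), named after their values were seen. Of all probe sets 2.78% passed in the same fit.

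**Figure D4:**
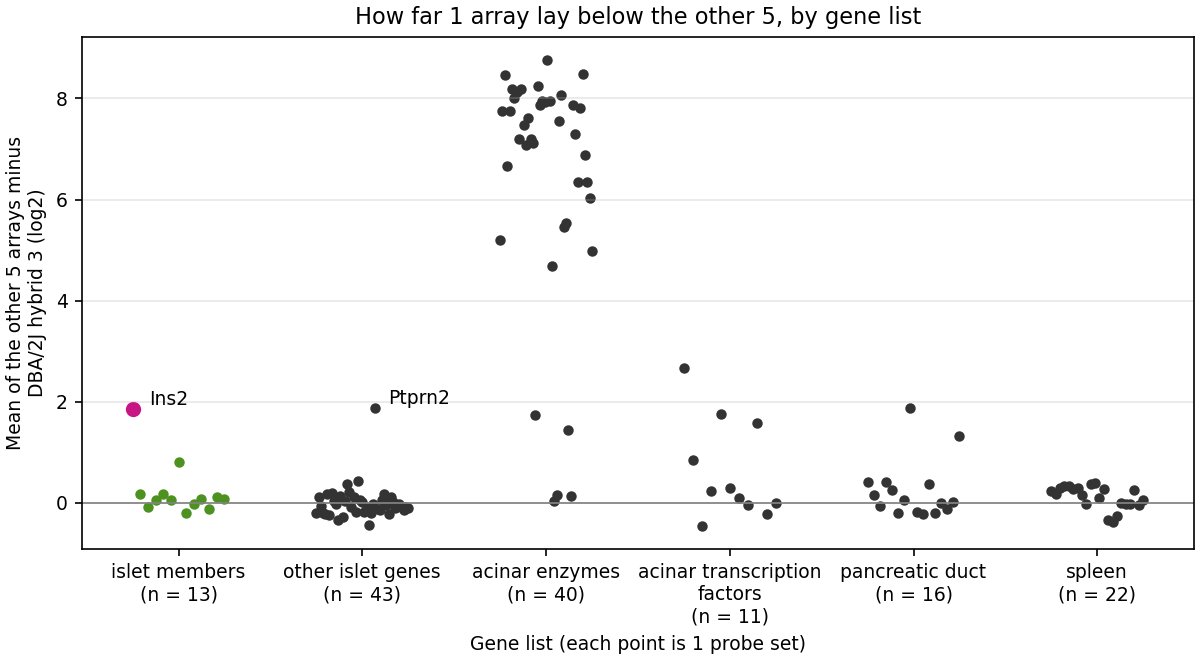
Mean of the other 5 arrays minus DBA/2J hybrid 3 (log2, y axis) for each probe set (points) of 6 gene lists (x axis). Ins2 at 1.85 and one Ptprn2 probe set at 1.88 stand above the other islet probe sets, which lie between -0.44 and 0.81, while the acinar enzymes have a median of 7.39.

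A wider list of 36 islet genes outside the 10 was read in the same way, of which 29 had 43 probe sets. In limma 6 probe sets passed, 1 higher in AKR/J hybrids and 5 in DBA/2J hybrids, or 14.0% against 10.4% of all. When AKR/J hybrid 1, 2 or 3 was left out, 1, 0 and 0 passed, and when DBA/2J hybrid 1, 2 or 3 was left out, 3, 1 and 3 passed, with 11 to 14 at an unadjusted p under 0.05. In the same fits 2.22% to 10.6% of all probe sets passed, and 11053 to 13576 of the 45037 had an unadjusted limma p under 0.05. Of the 6 calls, 5 were probe sets of granule and processing genes, with Ptprn2 counted at both of its probe sets, and the other was the hormone Pyy. The median difference of the list was -0.12, beside -0.09 for dim probe sets as a whole, and the part of that shift in these calls was not tested.

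Among these granule genes, Ptprn2, a receptor-type phosphatase of dense-core granules, resembled the acinar pattern at 1 probe set. At 1435968_at it stood at 6.49, 6.54 and 6.55 in AKR/J hybrids and 5.35, 5.52 and 4.21 in DBA/2J hybrids. The crosses did not overlap, DBA/2J hybrid 3 was lowest, and the difference of 1.50 ± 0.29 passed (limma adjusted p = 0.0226). Without that array it was 1.09 ± 0.10 and passed as well (adjusted p = 0.00346). It did not pass without AKR/J hybrid 1, 2 or 3 (adjusted p = 0.0714, 0.0630 and 0.0692).

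The second Ptprn2 probe set, 1425724_at, went the other way, at 3.59, 3.59 and 3.73 against 4.17, 4.19 and 3.87. Its difference of -0.44 ± 0.11 passed (limma adjusted p = 0.0400, and 0.0358 without DBA/2J hybrid 3). The Ptprn2 probe sets therefore give no single direction for the gene.

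The remaining calls were small, at mean levels from 2.83 to 5.81, and higher in DBA/2J hybrids. Scg2 (secretogranin II) differed by -0.53 ± 0.10 (limma adjusted p = 0.0183), Scg5, a chaperone of the convertase Pcsk2, by -0.45 ± 0.10 (0.0292), and Pam, the enzyme that amidates peptide hormones, by -0.41 ± 0.10 (0.0396). Pyy, peptide YY, which gut cells and some islet cells make, differed by -0.34 ± 0.09 (0.0447). Of these, Scg2 passed without DBA/2J hybrid 3 (0.0366). None of the 16 probe sets of 8 further islet transcription factors passed in limma (3 at an unadjusted p under 0.05), and the smallest p was that of Pax6 at 1437816_at (-0.35, adjusted p = 0.0695). None of the 11 probe sets for glucose sensing and receptor genes passed either (2 unadjusted), with Gipr, the receptor for the gut hormone GIP, at -0.35 (adjusted p = 0.0587, and below the threshold with array weights, 0.0365, or 1 probe set a gene, 0.0439).

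Several islet genes are also made by other cells, so lists for those cells were read beside them. The 9 probe sets of gut endocrine and epithelial genes, of which 0 passed in limma (1 unadjusted, Gip, -0.28), had array means of 3.46 to 3.59 in AKR/J hybrids and 3.66 to 3.70 in DBA/2J hybrids. Of 14 probe sets for sympathetic nerve and adrenal medulla genes 4 passed, where 10.4% of all probe sets did (2.78% without DBA/2J hybrid 3). Neuropeptide Y (Npy) was higher in AKR/J hybrids (6.69, 6.75 and 6.55 against 5.25, 5.06 and 4.90, a difference of 1.59 ± 0.11, limma adjusted p = 0.000371), and was the 1 of the 4 that passed without DBA/2J hybrid 3 (adjusted p = 0.0016). The catecholamine enzymes Th (-0.38) and Dbh (-0.41 and -0.29 at 2 of its 3 probe sets) were higher in DBA/2J hybrids. Array means of that list were 5.38 to 5.44 and 5.30 to 5.43. Of 16 pancreatic duct probe sets 2 passed, beside the same 10.4% of all, Prom1 (1.17, limma adjusted p = 0.0196) and Slc4a4 (-0.44, adjusted p = 0.0185). Prom1 stood at 4.98, 5.29 and 5.39 against 4.21, 4.42 and 3.53, lowest in the same array as Ins2. Muc1, a mucin of duct and other epithelia that was named after its values were seen, stood at 6.57, 6.55 and 6.90 against 5.70, 6.02 and 4.48. It lay 1.87 lower in that array than in the mean of the others, beside 1.85 for Ins2, and its difference of 1.27 ± 0.34 did not pass (limma adjusted p = 0.0515). Without DBA/2J hybrid 3 Muc1 and Prom1 passed (adjusted p = 0.0376 and 0.0254) and Slc4a4 did not (0.0527). The mean of the duct list was 3.92 in DBA/2J hybrid 3 and 4.28 to 4.51 in the other arrays. Of 3 adipocyte probe sets 0 passed in limma (1 unadjusted, Adipoq, 1.44 with adjusted p = 0.128), with array means of 4.04 to 4.93 and 3.51 to 4.33. The part of these other cells in the islet values was not tested.

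The genes whose values over the 6 arrays lay nearest to those of Ins2, each centred on its own mean, were Vtn, Dcun1d5, Nfat5, Rrbp1 and Klk1, at root mean square differences of 0.33, 0.34, 0.35, 0.35 and 0.37. Vtn encodes vitronectin, an adhesion protein of plasma and matrix, and stood at 6.55, 6.89 and 6.61 against 5.47, 6.26 and 4.76. Rrbp1, a ribosome-binding protein of the rough endoplasmic reticulum, stood at 7.42, 7.67 and 7.30 against 7.28, 7.34 and 6.42, in the same order of arrays as Ins2. Klk1, tissue kallikrein, belongs to the acinar list and stood at 8.97, 9.32 and 9.56 against 8.53, 8.86 and 7.60 at the probe set concerned. All 5 were lowest in DBA/2J hybrid 3, and 0 of the 5 passed in limma between the crosses at these probe sets (adjusted p = 0.0505 to 0.340). The 5 were picked for nearness to Ins2, itself lowest there and not past the threshold, so both outcomes follow largely from that choice. Nearest to Iapp at 1437323_a_at were Depdc5, Rbm12b1, Cdk17, Mettl22 and Rab39, at 0.07 to 0.14, none of them in the acinar or islet lists.

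**Figure D5:**
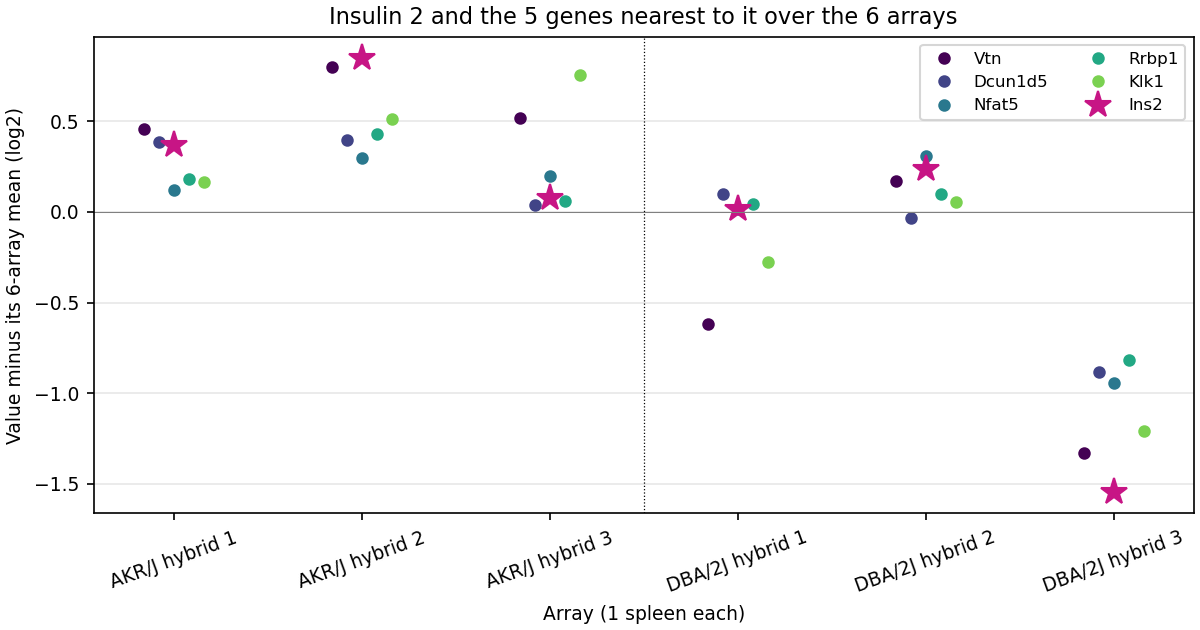
Values minus their own 6-array mean (log2, y axis) by array (x axis) for Ins2 (star) and the 5 genes whose values lay nearest to it. All 6 genes are lowest in DBA/2J hybrid 3, and of the 5 only Rrbp1 has the same order of all 6 arrays as Ins2. The 5 were picked for nearness to Ins2, so the shared lowest array follows largely from that choice.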

How the data were processed

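One Affymetrix array was run per spleen, on Trizol RNA labelled with biotin, per the labels' protocols. The authors deposited log2 values. Their array medians are nearly equal; the step that made them so, and which tool gave the values, were not stated in what was used here. The submitters' processing notes name RMA and MAS5, without roles or versions. Array signals compress differences near background and near saturation, which bears on the dim islet and the bright acinar probe sets. Of 45101 probe sets 64 controls were left out. Annotation gave 34945 of the others 1 symbol, 932 several and 9160 none here.

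Groups and replicate numbers came from the sample titles. limma 3.58.1 in R 4.3.3 (lmFit, then eBayes) compared the hybrids at every probe set over all 6 arrays, with Benjamini-Hochberg adjustment over 45037 probe sets and a threshold of 0.05. The fit leaves 4 residual degrees of freedom, and eBayes draws the variance of each probe set toward a value pooled over all probe sets. The SE, intervals and p-values rest on this moderated spread between the 6 spleens. An exact permutation test of 3 against 3 cannot go below p = 0.1. The members and the gene lists were chosen with earlier results of these data known. Named genes were all members, up to 4 genes past the threshold per list (or the one with the smallest p), the 4 brightest acinar enzymes, the acinar transcription factors, and the 5 genes nearest to Ins2 and to any member probe set with a range of at least 1. The second Ptprn2 and Dbh probe sets were named after their values were seen. Alternatives were median centring, quantile normalization, leaving out the lowest 40% of probe sets, trended and robust variance, array weights, a replicate block, each array left out, and 1 probe set a gene.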

Additional observations from a re-analysis of the deposited data

How the results depend on the processing

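The count of islet probe sets past the threshold was 1 with all arrays, and 1 with array weights, with 1 probe set a gene and with the replicate block. With the block that 1 was Iapp at 1437323_a_at and not Nkx6-1. Deviations of same-numbered arrays correlated at r = 0.201, 0.108 and 0.045 across probe sets, and those of differently numbered arrays at -0.16 to 0.056. These values do not settle whether the numbers pair the samples, and the main fit took the samples as unpaired. It was 0 in limma with median centring, quantile normalization or a trended and robust variance (1 or 2 at an unadjusted p under 0.05), 0 of the 3 left when dim probe sets were dropped (0 unadjusted), and 0 to 0 when any 1 array was left out (1 to 3 unadjusted). Of the acinar probe sets 6 passed, 2 with a trended and robust variance, and 0 to 6 when 1 array was left out. Of the other islet probe sets 6 of 43 passed, 0 to 3 when 1 array was left out, and 4 of the 7 that a filter on dim probe sets kept (57.1%, against 16.3% of all it kept). With 1 probe set a gene 8 of 29 passed (27.6%), 1 higher in AKR/J hybrids and 7 in DBA/2J hybrids. The share of all genes that passed in that setting was not counted, so this count has no background to be read against. Over all probe sets 4688 passed, and 1001 to 4793 when 1 array was left out; with median centring the split was 3050 higher in AKR/J hybrids and 1878 in DBA/2J hybrids, against 2317 and 2371 as deposited. The Ins2 difference was not past the threshold in any alternative (adjusted p = 0.0574 with the replicate block, 0.408 at most). No call of a named probe set changed sign. The pseudocount alternative applies to linear values and was not run. With 3 arrays a cross and no detection calls, a low islet signal cannot be told from background.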
